A study of Mus musculus with 12 samples.

Results

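Leucogen, a cysteine analogue prescribed against low leucocyte counts, was compared with no drug in femoral bone marrow of mice that had all been dosed with the alkylating agent cyclophosphamide, which is toxic to dividing cells. The comparison rests on 6 of the 12 sequenced libraries, 3 of the leucogen group and 3 of the model group, and on the 14184 of 34745 genes with enough counts to be tested. Each library came from 1 male ICR mouse, an outbred stock, and 3 mice formed a group. The model group was given 80 mg/kg of cyclophosphamide daily on days 5 to 7 and no other drug. The leucogen group received the same cyclophosphamide and, daily for 1 week, leucogen at 20 mg/kg. The normal group had neither, and the QJSB group received the same cyclophosphamide with Qi-Jing-Sheng-Bai granule at 3 g/kg per day. Both are given beside the comparison where a level is placed. RNA came from unsorted marrow, so fewer cells of a type and less RNA per cell cannot be told apart.

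A neutrophil is made in the marrow through a fixed order of stages. Promyelocytes fill primary granules with myeloperoxidase and serine proteases, later precursors make secondary granules, and band and segmented cells make tertiary granules and the receptors that carry the cell into blood. Each stage has its own set of transcripts. Cyclophosphamide empties the marrow of dividing precursors, and granulopoiesis then restarts from early stages.

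The 6 libraries held between 11172547 and 16922274 counts. A level is given as CPM, a count divided by library size and scaled with TMM factors of the 12 libraries. A gene was called, or said to have risen or fallen, when its Benjamini-Hochberg adjusted p in the quasi-likelihood test of edgeR was under 0.05 and its fold change over 1.5 in either direction. With an unadjusted p in its place, 29.6% of genes passed. Model libraries were less alike than leucogen libraries by a chi-square on raw counts. Per degree of freedom it was 44.8 to 59.3 between pairs of model libraries and 13.9 to 19.4 between pairs of leucogen libraries. This measure grows with depth, and model libraries held 13279282 to 16922274 counts against 11172547 to 14766064 in leucogen. Gm26917, a noncoding gene model on chromosome 17, took 2.96% to 4.88% of counts in model and 1.21% to 1.70% in leucogen. Its share was 3.91% to 4.48% in QJSB and 1.55% to 2.08% in normal marrow. Leaving out Gm26917 and its neighbour Gm42418 left 3266 genes called of 14167.

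Of the 14184 genes, 3275 were called (23.1%), 1640 of them higher in leucogen (11.6%) and 1635 lower (11.5%). With library totals in place of TMM, 1150 were higher (8.11%) and 2655 lower (18.7%), and the median log2 fold change over all genes moved from -0.05 to -0.22. How the calls divided between rises and falls therefore depended on the scaling. Leaving out leucogen 3 left 1239 calls, and leaving out leucogen 1 left 1724. In 6523 genes (46.0%) the 3 leucogen libraries lay wholly above or below the 3 model libraries.

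**Figure D1:**
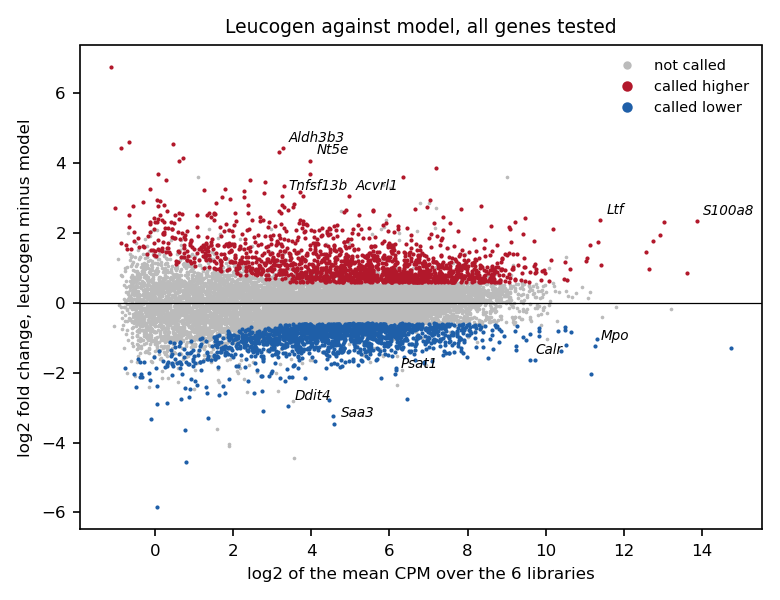
Log2 fold change of leucogen minus model (y axis) for the 14184 genes tested, by the log2 of the mean CPM over the 6 libraries (x axis). Red points are the 1640 genes called higher, blue points the 1635 called lower and grey points those not called; S100a8 and Ltf lie among the abundant genes called higher, and Mpo and Calr among the abundant genes called lower.

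Genes of secondary granules, which carry antimicrobial proteins, were mostly higher in leucogen. The 250 bases before the start of 4 of them are shown because C/EBP factors and PU.1 are known regulators of granule genes. The sequences are from RefSeq on GRCm38.p6. Ltf lies at chr9:111019042-111019291 on the plus strand, Camp at chr9:109849457-109849706 on the minus strand, Ngp at chr9:110419558-110419807 on the plus strand and Lcn2 at chr2:32387740-32387989 on the minus strand. Capitals mark a match on either strand to TTNNGNAA, the letters searched for C/EBP factors.
Ltf: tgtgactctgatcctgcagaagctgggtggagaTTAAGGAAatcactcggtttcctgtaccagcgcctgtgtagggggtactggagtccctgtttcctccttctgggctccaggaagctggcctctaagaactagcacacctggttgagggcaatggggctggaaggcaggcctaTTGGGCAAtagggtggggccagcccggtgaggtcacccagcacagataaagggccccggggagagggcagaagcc
Camp: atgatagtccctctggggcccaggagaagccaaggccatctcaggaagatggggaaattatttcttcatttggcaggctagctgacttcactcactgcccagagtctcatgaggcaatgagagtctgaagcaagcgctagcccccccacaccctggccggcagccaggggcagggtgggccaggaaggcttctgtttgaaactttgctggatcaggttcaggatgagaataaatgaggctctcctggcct
Ngp: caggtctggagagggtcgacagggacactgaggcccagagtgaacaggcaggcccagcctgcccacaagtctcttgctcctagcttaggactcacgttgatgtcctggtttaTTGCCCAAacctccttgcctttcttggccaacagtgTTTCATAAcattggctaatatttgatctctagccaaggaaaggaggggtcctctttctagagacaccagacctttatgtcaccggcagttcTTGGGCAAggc
Lcn2: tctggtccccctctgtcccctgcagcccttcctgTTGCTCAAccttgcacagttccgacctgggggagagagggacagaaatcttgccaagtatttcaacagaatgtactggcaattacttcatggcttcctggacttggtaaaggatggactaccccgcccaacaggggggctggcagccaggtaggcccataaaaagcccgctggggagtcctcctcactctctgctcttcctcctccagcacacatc
Ltf held 2 such matches, Ngp 3, Lcn2 1 and Camp 0. Of the 12 listed genes 10 had a window, and 8 of these held the letters, against 36.8% of all 32851 windows of this length. They were in 5 of the 7 genes with a window that were called higher and in 3 of the 3 that were not called. GAGGAA, searched for PU.1, was in 5 of the 10 and in 23.3% of all windows, and GATAA, searched for GATA factors, was in 2 of the 10 and in 22.6% of all windows. A match describes the letters and was not tested as a binding site.

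Lactoferrin (Ltf), an iron-binding protein of secondary granules, was at 308, 1377 and 944 CPM in the 3 model libraries and at 4002, 5341 and 4164 CPM in the 3 leucogen libraries. Every leucogen library stood above every model library and above the 2372 to 2455 CPM of normal marrow. The log2 fold change was 2.37 (SE 0.50, edgeR adjusted p = 0.0161). Ltf was not called without model 3 (edgeR adjusted p = 0.0648) or without leucogen 3 (edgeR adjusted p = 0.0537). Camp, the precursor of the antimicrobial peptide cathelicidin, was at 134, 354 and 179.9 CPM in model and at 1200, 1177 and 1218 CPM in leucogen. The leucogen libraries lay close together, above both the model range and the 626 to 818 CPM of normal marrow (log2 fold change 2.43, SE 0.34, edgeR adjusted p = 0.00413). Ngp, a neutrophil granule protein, was at 497, 1641 and 1417 CPM in model and at 3280, 4624 and 3999 CPM in leucogen (log2 fold change 1.75, SE 0.41, edgeR adjusted p = 0.0199). Lcn2, a lipocalin that binds bacterial siderophores, was at 286, 1171 and 1069 CPM in model and at 1862, 2221 and 2137 CPM in leucogen, without overlap, but did not pass the test (log2 fold change 1.31, SE 0.48, edgeR adjusted p = 0.0823).

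Of the 12 secondary granule genes, 8 rose and the others were not called, beside 11.6% of all genes called higher. Their median log2 fold change was 1.70 against -0.05 over all genes. Ly6g, the surface antigen by which mouse neutrophils are sorted, rose from 5.77, 40.1 and 10.4 CPM in model to 268, 273 and 276 CPM in leucogen. The leucogen libraries also lay above the 136 to 165 CPM of normal marrow (log2 fold change 3.87, SE 0.78, edgeR adjusted p = 0.0202). Chil3, Itgb2l, Abca13 and Orm1 rose with log2 fold changes of 0.97, 2.29, 1.64 and 2.14, and Chil3 has close paralogs with which reads could be shared. The count of 8 became 4 without model 3, 5 without leucogen 1, 4 without leucogen 2 and 3 without leucogen 3. Camp, Abca13 and Orm1 were called in each of the 16 alternatives tried.

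Of the 10 genes of tertiary granules and secretory vesicles 9 rose, beside 11.6% of all genes called higher, with a median log2 fold change of 1.89. Mmp9, the gelatinase that marks tertiary granules, was at 20.8, 142 and 87.2 CPM in model and at 524, 654 and 521 CPM in leucogen. The groups did not overlap, and leucogen lay in reach of the 548 to 630.5 CPM of normal marrow (log2 fold change 2.77, SE 0.68, edgeR adjusted p = 0.0334). Mmp8, the neutrophil collagenase, went from 354, 562 and 213 CPM to 1072, 1348 and 1402 CPM (log2 fold change 1.76, SE 0.33, edgeR adjusted p = 0.00921). Padi4, which citrullinates histones when neutrophils cast out chromatin, went from 10.2, 45.4 and 42.2 CPM to 228, 221 and 201 CPM (log2 fold change 2.74, SE 0.54, edgeR adjusted p = 0.0158). For Mmp8 the leucogen values overlapped the normal range, and for Padi4 they lay above its 99.99 to 106 CPM. The count of 9 became 2 without model 3, 4 without leucogen 1, 4 without leucogen 2 and 3 without leucogen 3.

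Among the 20 late neutrophil markers 7 rose, 1 fell and 12 were not called, beside 11.6% of all genes called higher and 11.5% called lower. S100a8 and S100a9, whose proteins pair as calprotectin, are among the most abundant transcripts of neutrophils. S100a8 was at 1724, 8703 and 4461 CPM in model and at 23680, 25400 and 25880 CPM in leucogen (log2 fold change 2.34, SE 0.52, edgeR adjusted p = 0.016). S100a9 was at 1065, 4914 and 2317 CPM in model and at 10990, 13500 and 16800 CPM in leucogen (log2 fold change 2.32, SE 0.52, edgeR adjusted p = 0.0175). Model 1 was lowest for both genes, and every leucogen library stood above every model and every normal library. Fpr2, a receptor for formyl peptides, rose from 39.3, 71.4 and 42.3 CPM to 336, 177 and 324 CPM (log2 fold change 2.46, SE 0.33, edgeR adjusted p = 0.00379). Cxcr2, the receptor that draws mature neutrophils out of marrow, was at 24.6, 103 and 144 CPM in model and at 259.5, 280.2 and 264 CPM in leucogen, without overlap, but did not pass the test (edgeR adjusted p = 0.103). Model libraries differed among themselves by several fold for this gene. The count of 7 became 11 without model 1, 12 without model 2, 2 without model 3, 3 without leucogen 1, 4 without leucogen 2 and 1 without leucogen 3.

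Genes of primary granules were lower in leucogen. Mpo, myeloperoxidase, was at 3233, 2313 and 4708 CPM in model and at 1349, 1835 and 1161 CPM in leucogen. Every leucogen library was below every model library, and both groups stood above the 341 to 414 CPM of normal marrow (log2 fold change -1.23, SE 0.28, edgeR adjusted p = 0.0137). The serine proteases Elane, Prtn3, Ctsg and Prss57 fell with log2 fold changes of -0.96, -1.05, -0.70 and -0.86, and Cst7, a cystatin, fell with -1.42. Of the 8 listed genes 6 fell, beside 11.5% of all genes called lower. Serpinb1a, an inhibitor of these proteases, was the member that rose (log2 fold change 1.17, SE 0.31, edgeR adjusted p = 0.0249). Leaving out model 3 left 3 members called lower, leaving out leucogen 1 left 1, and leaving out leucogen 3 left 0, where Mpo had an edgeR adjusted p of 0.0722.

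**Figure D2:**
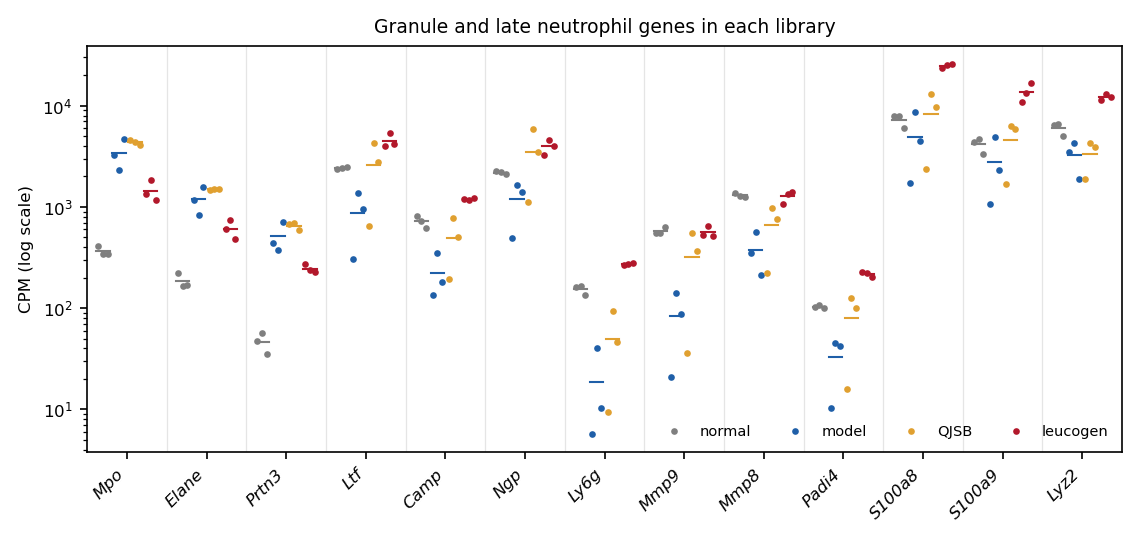
CPM on a log axis (y) of primary granule genes (Mpo to Prtn3), secondary granule genes (Ltf to Ly6g), tertiary granule genes (Mmp9 to Padi4) and S100a8, S100a9 and Lyz2 in each of the 12 libraries (x, by gene). Points are libraries, short lines are means of 3 libraries and colours are the normal, model, QJSB and leucogen groups; the leucogen points lie below the model points for Mpo, Elane and Prtn3 and above them for the other genes.

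Genes of neutrophil function rose in part. Cybb and Ncf1, subunits of the phagocyte NADPH oxidase, which makes superoxide, rose. Cybb, its catalytic subunit, went from 1231, 2253 and 1742 CPM to 3065, 4142 and 3911 CPM, with every leucogen library above every model library (log2 fold change 1.10, SE 0.25, edgeR adjusted p = 0.0131). Without leucogen 3 the edgeR adjusted p was 0.0591 for Cybb and 0.0902 for Ncf1. Lyz2, lysozyme, was at 3525, 4270 and 1882 CPM in model and at 11460, 13180 and 12090 CPM in leucogen. Its leucogen libraries also lay above the 5040 to 6583 CPM of normal marrow (log2 fold change 1.93, SE 0.31, edgeR adjusted p = 0.00423). Cxcr4, which holds neutrophils in the marrow, was at 243, 189 and 269.5 CPM in model and at 184, 219 and 198 CPM in leucogen, and the groups overlapped (edgeR adjusted p = 0.335). Among 11 genes of leukotriene and prostaglandin synthesis and reception, Alox5, Ptges and Ptgs1 rose, beside 11.6% of all genes called higher, with a list median of 0.43. The count was 5 without model 3, 2 without model 1 or any 1 of the leucogen libraries, and 2 with library totals or FPKM values. Alox5, the lipoxygenase that starts leukotriene synthesis, went from 19.9, 47.5 and 48.4 CPM to 134, 170.2 and 139 CPM, above its normal level of 80.2 to 90.7 CPM (log2 fold change 1.95, SE 0.32, edgeR adjusted p = 0.00692).

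Genes of amino acid supply were lower in leucogen. Cells short of amino acids or with misfolded protein in the endoplasmic reticulum phosphorylate the initiation factor eIF2alpha, which favours translation of ATF4, and ATF4 raises genes of serine synthesis, amino acid transport and tRNA charging. Of the 15 genes on the amino acid stress list 10 fell and none of the others was called, beside 11.5% of all genes called lower, and the median log2 fold change was -1.21. Psat1, an enzyme of serine synthesis, was at 100.1, 90.5 and 148 CPM in model and at 27.6, 29.7 and 24.2 CPM in leucogen (log2 fold change -2.05, SE 0.20, edgeR adjusted p = 0.00158). Phgdh, which takes the first step of that pathway, was at 63.3, 46.1 and 67.3 CPM in model and at 20.6, 19.4 and 16.4 CPM in leucogen (log2 fold change -1.64, SE 0.18, edgeR adjusted p = 0.00177). For both genes the groups lay far apart. Leucogen was below the 37.97 to 44.5 CPM of normal marrow for Psat1 and overlapped its 18.1 to 21.3 CPM for Phgdh.

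Shmt2, which passes a carbon of serine to folate in mitochondria, fell from 92.8, 67.2 and 180.1 CPM to 31.3, 34.8 and 22.3 CPM (log2 fold change -1.94, SE 0.37, edgeR adjusted p = 0.0116). The tRNA synthetase genes Aars, Gars and Nars fell with log2 fold changes of -1.37, -1.14 and -1.09, and Atf4 itself with -0.77 (SE 0.21, edgeR adjusted p = 0.0244). Slc3a2, the heavy chain of amino acid transporters, and Nupr1, a stress-induced nuclear protein, fell with -1.28 and -1.26. Outside the list, Slc7a5, the light chain that pairs with Slc3a2, fell with -2.16, and Bcat1, which takes the amino group from branched-chain amino acids, with -2.23. Without model 3 these values were -1.31 and -1.30, and neither gene was called when any 1 leucogen library was left out. Trib3, a target of ATF4, was at 1.85, 3.402 and 12.8 CPM in model and at 0.794, 1.45 and 0.672 CPM in leucogen, low in both groups and highest in model 3 (log2 fold change -2.59, SE 0.77, edgeR adjusted p = 0.0424). Asns and Mthfd2, of the same list, overlapped between the groups and did not pass the test (edgeR adjusted p = 0.223 and 0.121). The summed level of the list was 846, 866 and 1562 CPM in model and 437, 532 and 422 CPM in leucogen, so model 3 was the highest library. The count of 10 became 4 without leucogen 1, 6 without leucogen 2 and 4 without leucogen 3. Psat1, Phgdh, Shmt2 and Nars were called in each of the 16 alternatives.

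The windows of Aars and Gars are shown since both hold TGATGNAA, letters of the element that ATF4 binds with C/EBP factors. This search was added after the values had been seen. Aars lies at chr8:111033592-111033841 on the plus strand and Gars at chr6:55037751-55038000 on the plus strand, and capitals mark the match on either strand.
Aars: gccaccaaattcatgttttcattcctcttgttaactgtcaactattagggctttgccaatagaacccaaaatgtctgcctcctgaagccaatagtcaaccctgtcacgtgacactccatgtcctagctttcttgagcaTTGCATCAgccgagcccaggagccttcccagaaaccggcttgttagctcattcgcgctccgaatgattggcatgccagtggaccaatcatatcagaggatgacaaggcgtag
Gars: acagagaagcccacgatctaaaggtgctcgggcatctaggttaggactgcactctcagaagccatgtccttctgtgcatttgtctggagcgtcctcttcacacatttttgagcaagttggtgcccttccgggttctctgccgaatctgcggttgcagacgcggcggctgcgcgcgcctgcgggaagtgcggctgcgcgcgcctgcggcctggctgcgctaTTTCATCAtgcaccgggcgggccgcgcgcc
Of the 14 listed genes with a window 6 held these letters, against 3.45% of all windows. They were in 3 of the 9 genes with a window that were called lower and in 3 of the 5 that were not called. Among the called genes, the windows of Aars, Gars and Nupr1 held a match, and those of Psat1, Phgdh, Shmt2, Atf4, Trib3 and Slc3a2 held 0.

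Chaperones and folding enzymes of the endoplasmic reticulum, which the unfolded protein response raises, were lower too. Of 11 listed genes 8 fell and none of the others was called, beside 11.5% of all genes called lower, with a median log2 fold change of -1.11. Calr, calreticulin, was at 1205, 814 and 1466 CPM in model and at 363, 444 and 311 CPM in leucogen (log2 fold change -1.63, SE 0.23, edgeR adjusted p = 0.00302). Pdia6, a disulphide isomerase, was at 326, 346 and 364 CPM in model and at 134, 130.5 and 118 CPM in leucogen (log2 fold change -1.43, SE 0.13, edgeR adjusted p = 0.00149). Every leucogen library was below every model library for both, and leucogen overlapped normal marrow for Calr and lay above it for Pdia6. Pdia4, Sdf2l1, Creld2, Herpud1 and Manf fell with log2 fold changes of -1.72, -1.47, -1.23, -1.11 and -0.75, and Hspa5, the chaperone BiP, with -0.80. Hsp90b1 was at 952, 1136 and 901 CPM in model and at 809, 744 and 789.8 CPM in leucogen and did not pass the test (edgeR adjusted p = 0.12). Leaving out any 1 library left 7 or 8 of the list called lower.

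Glucocorticoid-responsive genes were mostly lower, while the gene of the receptor was higher. Nr3c1, the glucocorticoid receptor, was at 119, 132 and 128 CPM in model and at 266, 352 and 249.5 CPM in leucogen. The leucogen libraries also stood above the 196 to 210.0 CPM of normal marrow (log2 fold change 1.20, SE 0.16, edgeR adjusted p = 0.00242). Ddit4, an inhibitor of mTORC1, was at 25.3, 17.9 and 13.3 CPM in model and at 1.43, 2.899 and 2.88 CPM in leucogen. The leucogen values lay far below the model values and below the 9.72 to 11.3 CPM of normal marrow (log2 fold change -2.96, SE 0.35, edgeR adjusted p = 0.00178). Per1, a clock gene, fell from 70.7, 59.96 and 64.96 CPM to 21.3, 34.3 and 19.96 CPM (log2 fold change -1.37, SE 0.21, edgeR adjusted p = 0.00397), and Klf9, Tsc22d3 and Fkbp5 fell with -1.04, -0.87 and -0.86. Of the 9 listed genes 5 thus fell, beside 11.5% of all genes called lower, and Nr3c1 was the member that rose. Zbtb16, Dusp1 and Sgk1 overlapped between the groups and did not pass the test. The direction of the 6 called genes held in each of the 16 alternatives, and without 1 library the number called lower ranged from 4, without leucogen 3, to 7, without model 3.

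Fos, an immediate early gene, fell from 16.6, 17.8 and 18 CPM to 4.92, 3.91 and 2.98 CPM (log2 fold change -2.13, SE 0.23, edgeR adjusted p = 0.00177), while Fosl2 of the same family rose from 107, 112 and 121 CPM to 228, 209.6 and 239.6 CPM (log2 fold change 1.00, SE 0.13, edgeR adjusted p = 0.00239). Neither gene overlapped between the groups. Fosl2 and Fos were the members called, 1 higher and 1 lower, among 10 immediate early genes tested, and 8 were not called. These shares were near the 11.6% of all genes called higher and the 11.5% called lower. Among the 3 normal libraries Fos ran from 3.17 to 36.1 CPM, a wider spread than in either group compared.

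**Figure D3:**
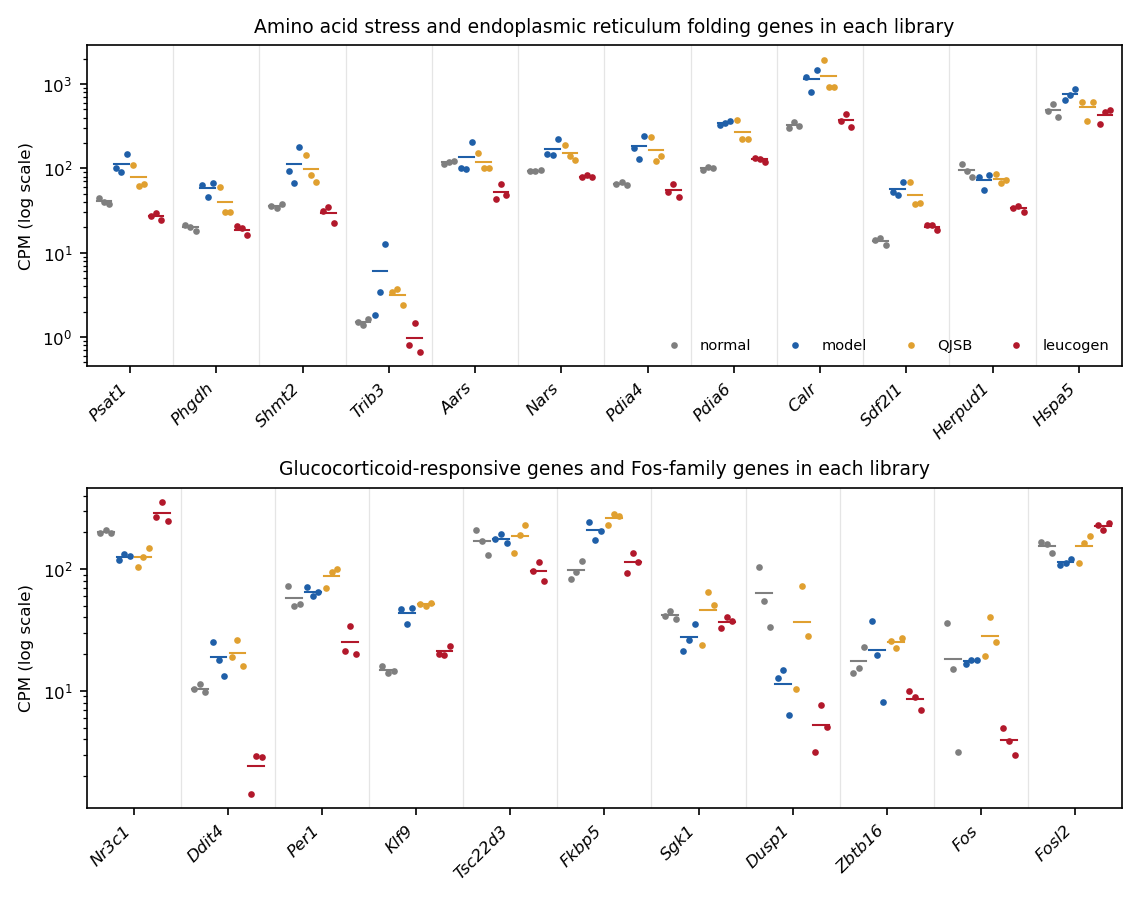
CPM on a log axis (y) of amino acid stress and endoplasmic reticulum folding genes (upper panel) and of glucocorticoid-responsive and Fos-family genes (lower panel) in each of the 12 libraries (x, by gene). Points are libraries, short lines are means of 3 libraries and colours are the normal, model, QJSB and leucogen groups; every leucogen point lies below the model points in the upper panel, and in the lower panel Nr3c1 and Fosl2 lie above them.

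Genes of energy supply and of protein synthesis were lower in part. The counts of this paragraph stand beside 11.6% of all genes called higher and 11.5% called lower. Of 24 nuclear genes of oxidative phosphorylation 12 fell and none of the others was called, with a median log2 fold change of -0.63. Ndufa9, a subunit of complex I, fell from 52.6, 57.1 and 43.9 CPM to 21.1, 18.6 and 24.1 CPM. The leucogen libraries lay below the model range and below the 36.9 to 40.5 CPM of normal marrow (log2 fold change -1.26, SE 0.17, edgeR adjusted p = 0.00261). Of 79 genes of cytosolic ribosomal proteins 24 fell, with a median of -0.38, and processed pseudogenes make single members uncertain. Without leucogen 3, 8 oxidative phosphorylation genes and 10 ribosomal protein genes were called lower, and without leucogen 1, 8 and 12. Of 19 genes of glycolysis and hypoxia 5 rose and 4 fell, with a median of -0.28. Those counts were 3 and 4 without model 1, 6 and 2 without model 3, 4 and 1 without leucogen 1, 2 and 7 without leucogen 2 and 2 and 1 without leucogen 3, and 4 and 8 with library totals. Slc2a3, a glucose transporter, had the largest change among them and rose from 60.8, 111 and 127 CPM to 287, 329 and 300.3 CPM, above its normal level of 177 to 203 CPM (log2 fold change 1.62, SE 0.25, edgeR adjusted p = 0.0042). Pdk4, a kinase that shuts pyruvate dehydrogenase, fell from 9.06, 18.3 and 6.75 CPM to 2.62, 1.81 and 1.44 CPM (log2 fold change -2.52, SE 0.42, edgeR adjusted p = 0.00534).

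Of 22 DNA replication genes 7 fell and none of the others was called, beside 11.5% of all genes called lower, with a median log2 fold change of -0.51. Mcm3, a subunit of the replicative helicase, fell from 211, 114 and 186 CPM to 76.9, 93.1 and 71.3 CPM (log2 fold change -1.08, SE 0.22, edgeR adjusted p = 0.0104). Cdt1, which loads that helicase, fell with -1.22 and was called in each alternative. Of 22 mitosis genes 3 fell, a share near that of all genes called lower, with a median of -0.23, and their summed level was 5096, 6363 and 6826 CPM in model and 5243, 6244 and 6810 CPM in leucogen. These sums overlapped. Of 66 replication-dependent histone genes, a family with shared sequence, 17 fell, with a median of -0.81. With library totals the counts called lower were 13 for replication, 8 for mitosis and 28 for histones, and without leucogen 3 they were 3, 0 and 4. The same counts were 3, 0 and 5 without leucogen 1 and 3, 0 and 8 without model 3. Of 18 genes of the Fanconi pathway, which repairs the crosslinks that cyclophosphamide makes, 0 were called by edgeR, 1 was lower at an unadjusted p under 0.05, and 0 were called by DESeq2. With library totals 1 was called lower, and on log2(FPKM + 0.1) 2 were.

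Genes of mononuclear phagocytes and of antigen presentation were lower in part. Over all genes, 11.6% were called higher and 11.5% lower. Of 13 monocyte markers 5 fell and 1 rose, with a median log2 fold change of -0.48. Csf1r, the receptor for macrophage colony-stimulating factor, fell from 200.3, 146 and 156 CPM to 90.8, 80.7 and 82.9 CPM (log2 fold change -0.98, SE 0.16, edgeR adjusted p = 0.00434). Treml4, a receptor of the TREM family, was the member that rose, from 5.08, 8.29 and 3.46 CPM to 24.3, 22.9 and 20.3 CPM (log2 fold change 2.02, SE 0.30, edgeR adjusted p = 0.00346). Of 16 macrophage markers 4 fell and 2 rose, the 2 being a share near that of all genes called higher, with a median of -0.46. Cd163, the haemoglobin scavenger receptor, fell with a log2 fold change of -2.01, and Slc40a1, the iron exporter ferroportin, rose with 1.18. Of 12 genes of MHC class II and dendritic cells 6 fell and none of the others was called, with a median of -1.12. Cd74, the invariant chain, was at 64.1, 57.7 and 30.8 CPM in model, at 14.8, 15 and 17.9 CPM in leucogen and at 179 to 216 CPM in normal marrow. Leucogen lay farther below normal than model did (log2 fold change -1.68, SE 0.27, edgeR adjusted p = 0.00477). Without 1 library, the number called lower ranged from 2 to 5 for monocyte markers, from 1 to 6 for macrophage markers and from 1 to 6 for the MHC class II list, with the most macrophage and MHC calls without model 3 and the fewest MHC calls without leucogen 1.

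Among progenitor genes, Flt3, a receptor of early progenitors, fell from 173, 80.8 and 86.8 CPM to 28.8, 32.2 and 31.5 CPM. Leucogen reached the 24.98 to 37.5 CPM of normal marrow (log2 fold change -1.87, SE 0.29, edgeR adjusted p = 0.00501). Cebpa, a factor of granulocyte and monocyte progenitors, fell with -0.79 (SE 0.16, edgeR adjusted p = 0.00938). Of 15 stem and progenitor genes Flt3 fell, Erg rose and the others were not called, so that 13.3% were called, below the 23.1% of all genes. With library totals 0 were higher and 3 lower. Without model 3 the number lower was 3, and without model 2 it was 2. Of 9 pre-B cell genes tested, Dntt, Bach2 and Cd79b fell, beside 11.5% of all genes called lower. The count was 7 without model 3, 1 without model 1, 1 without leucogen 1 and 0 without leucogen 2 or leucogen 3. Bach2, a B cell transcription factor, was at 17.9, 5.17 and 6.92 CPM in model, at 3.49, 0.725 and 0.768 CPM in leucogen and at 132 to 259 CPM in normal marrow, so both cyclophosphamide groups were far below normal. Of 20 erythroid genes 0 were called by edgeR, 0 at an unadjusted p under 0.05 and 0 by DESeq2. The summed erythroid level was 2390, 639 and 406 CPM in model, 585, 1251 and 546 CPM in leucogen and 24810 to 28980 CPM in normal marrow. Model and leucogen overlapped, far under normal.

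**Figure D4:**
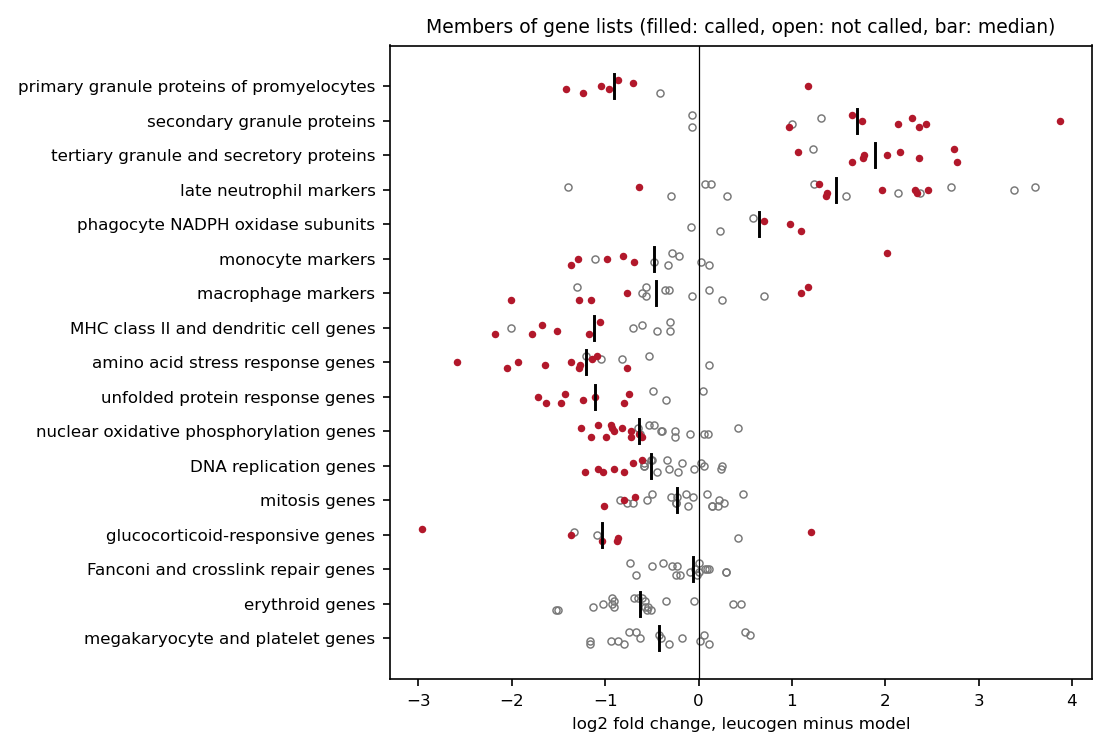
Log2 fold change of leucogen minus model (x axis) for the members of 17 gene lists (y axis). Filled points were called, open points were not, and vertical bars are list medians; the medians of the secondary and tertiary granule lists lie at 1.70 and 1.89, and those of the amino acid stress and unfolded protein response lists at -1.21 and -1.11.

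The largest changes were ranked among called genes with a mean of at least 5 CPM and no overlap between the groups. Gene models without a name, pseudogenes and antigen receptor segments were passed over. The 12 largest rises in this ranking were those of Aldh3b3, Has2, Nt5e, Ly6g, Ifit1bl2, Tcf24, Chil5, Acvrl1, Tnfsf13b, Dfna5, Ppp1r42 and Mmp9. Tnfsf13b, the B cell survival factor BAFF, was at 2.08, 2.48 and 1.61 CPM in model, at 16.5, 16.96 and 17.4 CPM in leucogen and at 12.1 to 15.1 CPM in normal marrow (log2 fold change 3.05, SE 0.23, edgeR adjusted p = 0.000946). Acvrl1, a type I receptor of the TGF-beta family, was at 5.65, 8.01 and 6.58 CPM in model, at 62.7, 41.8 and 63.5 CPM in leucogen and at 12.3 to 18.8 CPM in normal marrow (log2 fold change 3.06, SE 0.23, edgeR adjusted p = 0.000946). The leucogen libraries lay just above normal for Tnfsf13b and well above it for Acvrl1. Dfna5, a gasdermin that forms pores in dying cells, was at 16.9, 46.6 and 27.8 CPM in model, at 217, 214 and 268 CPM in leucogen and at 75.2 to 78.3 CPM in normal marrow (log2 fold change 2.95, SE 0.35, edgeR adjusted p = 0.00293). All 3 genes were called in each of the 16 alternatives. Ly6g, Chil5 and Mmp9 were not called without model 3 or without any 1 of the leucogen libraries. Nor was Ifit1bl2 called without model 3 or with the replicate block. In edgeR without a filter on low counts these 4 genes were not called either. Ifit1bl2, Chil5 and the Aldh3b genes have close paralogs, so reads could be split among them. Of 9 aldehyde dehydrogenase genes, whose enzymes detoxify aldehydes, Aldh3b3, Aldh3b2, Aldh3b1 and Aldh3a2 rose and Aldh1b1, Aldh7a1 and Aldh9a1 fell. The share called was 77.8%, beside 23.1% of all genes. The number that fell was 1 without model 1, leucogen 2 or leucogen 3, 2 without model 3 and 2 without leucogen 1.

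The 12 largest falls, ranked in the same way, were those of Saa3, Dntt, Abca6, Ddit4, Ms4a8a, Col1a1, Bach2, Pdk4, Strip2, Bcat1, Mif and Slc7a5. Col1a1, the collagen of bone, was at 305, 84.97 and 70.6 CPM in model and at 24.2, 21.4 and 21.97 CPM in leucogen, below the 68.2 to 109.6 CPM of normal marrow (log2 fold change -2.77, SE 0.62, edgeR adjusted p = 0.0252). Model 1 was far above the other model libraries, and the lack of overlap with leucogen was a condition for this ranking. Of 15 stromal and bone cell genes Col1a1 and Adipoq fell, a share near the 11.5% of all genes called lower, and 0 were called lower without leucogen 1, leucogen 2 or leucogen 3. Ms4a8a, a membrane protein, fell from 60.5, 41.2 and 12.4 CPM to 3.89, 6.02 and 6.62 CPM (log2 fold change -2.79, SE 0.59, edgeR adjusted p = 0.0177). Mif, a cytokine with many pseudogenes that can share its reads, fell from 25.3, 14.5 and 30.4 CPM to 5.56, 4.86 and 5.18 CPM, overlapping normal marrow (log2 fold change -2.17, SE 0.28, edgeR adjusted p = 0.00239). Of the 12 genes Ddit4, Strip2 and Mif were called in each of the 16 alternatives. Saa3 and Dntt, at the head of this ranking, were not called without leucogen 3, and Saa3 was not called without model 3. Without leucogen 3 the edgeR adjusted p was 0.066 for Ms4a8a, 0.0954 for Col1a1, 0.13 for Bach2, 0.103 for Bcat1 and 0.12 for Slc7a5.

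Leucogen was also set against QJSB, the other drug given with the same cyclophosphamide. Of 14266 genes tested 3511 were called (24.6%), 1675 higher in leucogen (11.7%) and 1836 lower (12.9%), and without leucogen 3 the number was 1544. The leucogen libraries are the same as above, so calls of a gene in both comparisons are not independent. Acvrl1, Tnfsf13b, Lyz2 and Nr3c1 were higher in leucogen than in QJSB, with log2 fold changes of 2.19, 1.97, 1.88 and 1.22 (edgeR adjusted p = 0.00549, 0.0161, 0.00501 and 0.00405). Of the amino acid stress list 9 of 15 genes were lower in leucogen than in QJSB, of the unfolded protein response list 7 of 11 and of the glucocorticoid list 7 of 9, beside 12.9% of all genes called lower. Ddit4 was at 18.9, 26.1 and 15.9 CPM in QJSB, and every QJSB library stood above every leucogen library (log2 fold change -3.06, edgeR adjusted p = 0.00285).

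Of the secondary and tertiary granule genes 1 of 12 and 1 of 10 were higher in leucogen than in QJSB, near the 11.7% of all genes. Their median log2 fold changes were 0.92 and 0.91, against -0.03 over all genes, so the few calls do not show that the groups were equal. Ltf was at 648, 4293 and 2773 CPM in QJSB (log2 fold change 0.83, edgeR adjusted p = 0.328), and Mmp9 was at 36.1, 549 and 366 CPM (log2 fold change 0.86, edgeR adjusted p = 0.494). QJSB 1 was far below the other QJSB libraries for both genes. Of the 8 primary granule genes 5 were lower in leucogen than in QJSB, among them Mpo (log2 fold change -1.56, edgeR adjusted p = 0.00311).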

How the data were processed

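Total RNA of femoral marrow was depleted of ribosomal RNA and sequenced as strand-specific libraries. Per the study's methods, the authors trimmed reads with Seqtk and aligned them with HISAT2 to a GRCm38 build, named mm10 in the submitters' processing notes. The counting program is not given in the sources used here. The authors deposited raw read counts per gene and FPKM values, which are counts scaled by gene length and depth. Column headings gave the samples: model matched the titles, Positive and Blank were read as leucogen and normal by their meaning and the last as QJSB by elimination.

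Of 34745 genes, 11677 had no count in any library. Counts of the 3 libraries of each group were fitted with edgeR 4.0.16 in R 4.3.3 (TMM, filterByExpr, robust quasi-likelihood fit), with p-values adjusted over all genes tested. SE is the log2 fold change over the square root of F. Alternatives used DESeq2 1.42.0 and limma 3.58.1 on log2(FPKM + 0.1) or log2(FPKM + 1), other scalings and filters, a replicate block, an unadjusted cutoff and each library left out. Counts differ in depth by library, and the p-values measure the spread between 3 mice a group.

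Same-numbered leucogen and QJSB libraries deviated together weakly (r = 0.174, 0.157 and 0.110 over genes). Between differently numbered ones r ran from -0.18 to 0.019. No label says that a number marks a shared batch. A fit with same-numbered libraries paired as a block called 3682 genes.

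The comparison, the 51 gene lists (807 genes) and the rules were chosen with earlier results of these data known. Genes named were the 12 largest rises and falls among called genes with a mean of at least 5 CPM and no overlap. Gene models without a name, pseudogenes and antigen receptor segments were passed over there. Also named were the 10 most abundant called genes, and the first 3 and the most changed called member of each list. In a list with more genes called than not, any member could be named. Genes outside this rule were named, mostly to complete a count, after their values were seen. Results for some genes are not reported here.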

Additional observations from a re-analysis of the deposited data

How the results depend on the processing

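Of leucogen against model, 3519 genes were called by DESeq2, 3244 with DESeq2 size factors, 3805 with library totals, 3282 without a filter, 3542 with all 12 libraries in one fit and 3628 on log2(FPKM + 0.1). The calls higher in leucogen were 1183 on log2(FPKM + 0.1), 986 on log2(FPKM + 1) and 1019 on FPKM without a filter, and the calls lower in leucogen were 2655 with library totals, so the share of calls that were higher was 50.1% with TMM, 30.2% with library totals and 32.6% on FPKM. Without 1 library, the calls ranged from 1239 to 3953, those higher from 743 to 2087 and those lower from 496 to 1866, with the fewest without leucogen 3. For leucogen against QJSB they ranged from 1544 to 3585, from 775 to 1810 and from 769 to 1775. The replicate block gave 2734 calls against model. There r was 0.125, -0.103 and -0.022 between same-numbered libraries, so that 1 of the 3 pairs was over 0.1. Differently numbered libraries reached 0.128, and the numbers were not taken to pair these samples. The cause of the differences between settings was not tested. With 3 mice a group, genes with a wide spread among model libraries, such as Cxcr2, did not pass the test, which does not show that they were equal.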

Other observations

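Of 13 toll-like receptor genes 1 rose and 1 fell, so that 15.4% were called, below the 23.1% of all genes. Tlr5, the receptor of flagellin, rose from 3.06, 4.04 and 2.596 CPM to 14.4, 10.9 and 10.9 CPM (log2 fold change 1.91, SE 0.26, edgeR adjusted p = 0.00255). Tlr9, the receptor of unmethylated DNA, fell with -1.82 and was not called without leucogen 3 (edgeR adjusted p = 0.0551). Tlr5 did not overlap between the groups. Of 7 genes of inflammatory cytokines and their feedback Tnf rose and Tgfb1 fell, so that 28.6% were called, near the 23.1% of all genes. Tnf was at 3.75, 6.88 and 7.56 CPM in model and at 15.6, 14.4 and 17.8 CPM in leucogen, also without overlap (log2 fold change 1.4, SE 0.27, edgeR adjusted p = 0.00821). Tgfb1 was at 179.9, 132 and 244 CPM in model and at 107, 119.7 and 101 CPM in leucogen (log2 fold change -0.76, SE 0.21, edgeR adjusted p = 0.0275), and it was the member called lower in all 6 libraries but not without model 1, model 3 or any 1 of the leucogen libraries. Of 13 genes of the inflammasome and the interleukin-1 family, Il1rn, the interleukin-1 receptor antagonist, Casp4, a caspase that senses lipopolysaccharide, and Il18rap rose with log2 fold changes of 1.42, 0.87 and 1.09, and the others were not called. The count of 3, beside 11.6% of all genes called higher, was 5 without model 2 and 1 without model 3 or any 1 of the leucogen libraries.

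Of 15 p53 target genes Mdm2, the ligase that degrades p53, rose with a log2 fold change of 0.62, while Cdkn1a, Bax and Sesn2 fell with -0.88, -0.75 and -1.12, beside 11.6% of all genes called higher and 11.5% called lower. Of the p53 targets 4 in all were called, 0 without leucogen 1 or leucogen 3. The number lower was 1 without model 1 or model 3 and 2 without leucogen 2, and with the replicate block it was 0. With library totals or FPKM values the number higher was 0. In the Bcl2 family, whose members set the threshold of apoptosis, 4 of 14 genes fell, beside 11.5% of all genes called lower. The count was 1 without leucogen 1 and 0 without leucogen 3. The members that fell were Bax, Bak1, Bid and Bmf, with log2 fold changes of -0.75, -0.92, -0.67 and -0.89. Bax was at 13.8, 13.5 and 12.6 CPM in model and at 8.57, 6.74 and 8.35 CPM in leucogen, without overlap (edgeR adjusted p = 0.0228). Among 17 glutathione and thiol genes, which bear on how cyclophosphamide products are cleared, Mgst1, Mgst2, Nqo1 and Ggt5 rose and Gstp1 fell. These counts stand beside 11.6% of all genes called higher and 11.5% called lower. Of the list 29.4% were called, beside 23.1% of all genes, and its median log2 fold change was -0.20. With library totals 3 were higher and 4 lower, and the number lower was 2 without leucogen 2 and 0 without model 1, model 3, leucogen 1 or leucogen 3. Some of these genes were named after their values had been seen.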
